A study of Mus musculus with 15 samples.

Results

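The step from the common dendritic cell progenitor (CDP) to the Zbtb46-GFP+ c-Kit-intermediate cell was examined in wild-type (WT) mouse bone marrow. The members are the arrays titled WT CDP and WT Zbtb46-GFP+, and 4 of the 15 arrays of the series give the values of the step: CDP replicates 1 and 2, and Zbtb46-GFP+ replicates 2 and 3. Zbtb46-GFP+ replicate 1 was left out of fits and levels because its values lay on another scale, with a median signal of 23.8 against 100.8 to 112.1 on the 4 arrays used. Both WT groups came from chimeric mice carrying the Zbtb46-GFP reporter, in which GFP is read from the Zbtb46 locus. The fit held 12 arrays, the 8 knockout arrays on the same scale included, which share in the estimate of the spread behind every standard error and p. The Batf3 KO groups came from Batf3 KO mice with the same reporter and are not labelled as chimeric, and the Id2 KO groups came from Id2 KO Zbtb46-GFP chimeric mice. Age, sex, the host of the chimeras and the number of animals behind each array are not given in the sources used here, so p-values measure the spread between these arrays, which may be technical. The series set out to describe gene expression of dendritic cell (DC) progenitors in the order in which they develop.

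DCs capture antigen, cut it into peptides and show the peptides to T cells on major histocompatibility complex (MHC) molecules. CDPs in the bone marrow still divide and can give rise to plasmacytoid DCs (pDCs) and to classical DCs, which comprise the cDC1 subset, specialised in presenting antigen to CD8+ T cells, and the cDC2 subset, which mainly primes CD4+ T cells. Zbtb46 is a zinc-finger transcription factor whose expression marks commitment to the classical lineage, so sorting bone marrow for GFP and c-Kit takes cells that have begun that step and carry the receptor Kit on their surface.

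Each value is the log2 of the deposited probe set signal of a gene, with 1 probe set per gene and 19938 genes in all, and a change is the Zbtb46-GFP+ mean minus the CDP mean on that scale, so that 1 unit is a doubling. A gene is called here when its adjusted p in limma (Benjamini-Hochberg over all genes) was under 0.05. In the WT step 2212 genes (11.1%) were called, 940 of them higher (4.71%) and 1272 lower (6.38%) in Zbtb46-GFP+ cells. The counts of called list members given below stand against these shares of all genes. Centring each array on its 75th percentile moved the median change of all genes from 0.03 to 0.14 and gave 1197 higher and 996 lower. Without CDP replicate 1 the count was 1183, with 730 higher and 453 lower, and without Zbtb46-GFP+ replicate 2 there were 986 higher and 792 lower, so the excess of lower genes rests on those arrays. Without CDP replicate 2 there were 587 higher and 1121 lower, and without Zbtb46-GFP+ replicate 3, 589 and 954. Rises were larger than falls: 153 called genes rose and 55 fell by at least 2, and 47 rose and 14 fell by at least 3. The median called rise was 1.09 and the median called fall -0.84. In sorted bulk populations, fewer cells expressing a gene and less RNA per cell cannot be told apart.

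**Figure D1:**
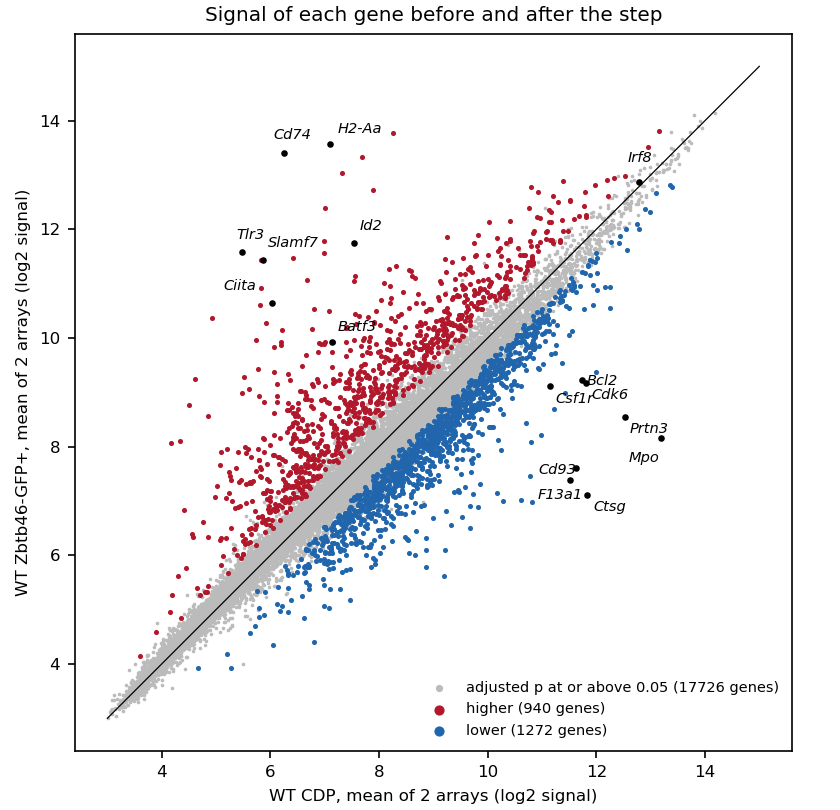
Mean log2 signal of each of the 19938 genes on the 2 WT CDP arrays (x axis) and the 2 WT Zbtb46-GFP+ arrays (y axis); the line marks equal signal, red and blue points are genes with an adjusted p under 0.05, and black points are named genes. The rises spread farther from the line than the falls, with Cd74, H2-Aa and Tlr3 at the far upper side and Mpo, Ctsg and F13a1 at the far lower side.

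The labels were set against the signal of the genes behind the sort. Zbtb46 read 6.07 and 5.94 on the CDP arrays and 7.18 and 6.99 on the Zbtb46-GFP+ arrays. Kit, the receptor for stem cell factor and the second marker of the gate, read 9.72 and 9.70 in CDPs and 11.05 and 11.37 in Zbtb46-GFP+ cells. Both were higher on both Zbtb46-GFP+ arrays, and as the sort used them this is a description of the gate. Flt3, the receptor whose ligand drives DC development, read 11.53 and 11.16 against 10.99 and 11.92, with overlapping groups.

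The largest rises were in MHC class II presentation. Class II molecules carry peptides from ingested protein; their genes are switched on by CIITA, a co-activator that does not bind DNA itself but docks on RFX and NF-Y proteins sitting on conserved X and Y boxes in front of each class II gene. Of 18 measured genes of class II presentation 11 rose and 1 fell, with a median change of 0.88 against 0.03 over all genes. Cd74, the invariant chain that guides class II molecules to the endosome, read 6.32 and 6.17 in CDPs and 13.29 and 13.53 in Zbtb46-GFP+ cells, a change of 7.17 ± 0.20 (SE, n = 2 against 2, adjusted p = 7.28e-09). For the alpha chain H2-Aa the values were 7.54 and 6.65, then 13.62 and 13.53, and the change was 6.48 ± 0.30 (adjusted p = 4.84e-07). H2-Eb1, a beta chain, went from 7.22 and 7.40 to 12.88 and 13.21. These genes differed between the stages by many times the distance between replicate arrays.

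The class II genes H2-Aa, H2-Ab1 and H2-Eb1, which lie in the same chromosomal cluster and rose together, were chosen for a view of their upstream sequence. The promoter reference held no entry for H2-Ab1, so only H2-Aa and H2-Eb1 are shown. Both carry the exact Y box, the site that NF-Y reads. Each line gives the 250 bases before the gene's start on the gene's own strand (RefSeq, GRCm38.p6), 5′ to 3′, with the Y box CTGATTGG in capitals. The region of H2-Aa is chr17:34287824-34288073 on the minus strand and that of H2-Eb1 is chr17:34305617-34305866 on the plus strand.
H2-Aa: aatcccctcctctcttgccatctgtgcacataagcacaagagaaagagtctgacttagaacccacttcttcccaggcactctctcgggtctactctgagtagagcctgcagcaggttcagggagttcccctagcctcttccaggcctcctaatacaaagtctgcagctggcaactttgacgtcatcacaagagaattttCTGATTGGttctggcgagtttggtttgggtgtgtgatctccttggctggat
H2-Eb1: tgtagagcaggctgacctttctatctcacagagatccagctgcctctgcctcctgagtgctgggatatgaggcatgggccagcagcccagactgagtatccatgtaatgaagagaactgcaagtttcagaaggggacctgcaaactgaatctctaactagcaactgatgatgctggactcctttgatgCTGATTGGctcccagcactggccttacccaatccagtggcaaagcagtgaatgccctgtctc
The Y box lay at bases -51 to -44 in H2-Aa and at -62 to -55 in H2-Eb1, counted back from the start. Searched on both strands, CTGATTGG was in the same window of 3.83% of 32851 promoters. Among the 14 class II presentation genes with a promoter in the table it was found in 3, namely H2-Aa, H2-Eb1 and H2-Oa. The shorter core ATTGG, which lies inside the Y box, was in 11 of the 14 and in 33.8% of all promoters. In such counts a gene was included when any promoter held for it matched, while the shares are over single promoters. The letters AGNNACNG, a loose form of the X box core, matched H2-Eb1 at -92 to -85 and did not match H2-Aa. They were in 6 of the 14 genes and in 43.6% of all promoters. A match describes these letters and is not a measured binding site.

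Of the factors that act at those boxes, the co-activator rose and the DNA-binding subunits were not called. Ciita read 5.94 and 6.12 in CDPs and 10.47 and 10.81 in Zbtb46-GFP+ cells, a change of 4.60 ± 0.18 (SE, adjusted p = 8.69e-08). The RFX subunits were not called: Rfx5 read 7.84 and 7.70 in CDPs and 7.26 and 8.28 in Zbtb46-GFP+ cells, Rfxap changed by 0.11 and Rfxank by -0.21. Nor were the NF-Y subunits, with changes of -0.31 for Nfya, 0.12 for Nfyb and -0.20 for Nfyc. Of the 7 class II factors listed, CIITA's gene was thus the one that passed the test.

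The chaperones and enzymes of the pathway changed by less than Cd74 and the classical chains named above. H2-Oa and H2-Ob encode the chaperone DO, which restrains peptide exchange, and rose by 2.45 ± 0.32 and 3.01 ± 0.22 (SE). H2-DMa, a chain of the peptide-exchange chaperone DM, was already at 11.94 and 11.64 in CDPs and rose by 0.89. The thiol reductase gene Ifi30 rose by 1.73, the endosomal protease gene Ctss by 0.87 and Marchf1, a ubiquitin ligase that removes class II molecules from the surface, by 0.86, the last call being lost without CDP replicate 1 (adjusted p = 0.0726). Lgmn, the asparagine endopeptidase, was lower by 0.73 (adjusted p = 0.0351); its call was lost without CDP replicate 1 (adjusted p = 0.215), CDP replicate 2 (0.0676) or Zbtb46-GFP+ replicate 2 (0.234), and with all 15 arrays fitted and a term for those on the other scale (0.147). In RefSeq order on chromosome 17, the 5 measured neighbours H2-Ob, H2-Ab1, H2-Aa, H2-Eb1 and H2-Eb2 were all called higher, by 1.17 to 6.48; probes of such related genes can bind each other's RNA, so the smaller values in the run are uncertain.

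The MHC class I pathway, which loads peptides cut by the proteasome, held fewer and smaller changes. Of 18 measured genes 5 rose and none fell, with a median of 0.26; without CDP replicate 2 or Zbtb46-GFP+ replicate 3, 3 were called. The rises were led by Rab43 and Wdfy4, both known for cross-presentation of cell-associated antigen by cDC1s, with changes of 2.38 ± 0.26 and 1.74 ± 0.15 (SE). Tapbp, encoding the loading chaperone tapasin, rose by 0.95. B2m, the class I light chain, read 12.41 and 12.75 in CDPs and 12.83 and 12.81 in Zbtb46-GFP+ cells and was not called, and the peptide transporter gene Tap2 changed by 0.34 without a call. Tap1 rose by 0.66, a call lost without CDP replicate 2 (adjusted p = 0.116) or Zbtb46-GFP+ replicate 3 (0.124).

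Lysosomal genes split. Of 28 measured, 7 rose and 6 fell, and the median change was 0.00; without CDP replicate 1, 7 were called in all. Plbd1, a phospholipase B-like enzyme, read 8.19 and 7.17 in CDPs and 13.27 and 13.41 in Zbtb46-GFP+ cells (change 5.66 ± 0.40, SE, adjusted p = 8.15e-06). Naaa, which hydrolyses fatty acid ethanolamides, rose by 4.84 and Ppt1, a depalmitoylating enzyme, by 2.11. The aspartic protease gene Ctsd went the other way, from 9.24 and 8.98 to 7.23 and 7.52, a change of -1.73 ± 0.17 (adjusted p = 8.28e-05). Tpp1, a tripeptidyl peptidase, fell by 0.90. Ctsb changed by -0.01 and Ctsl by -0.48 without a call, so the cathepsins did not move as one family.

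**Figure D2:**
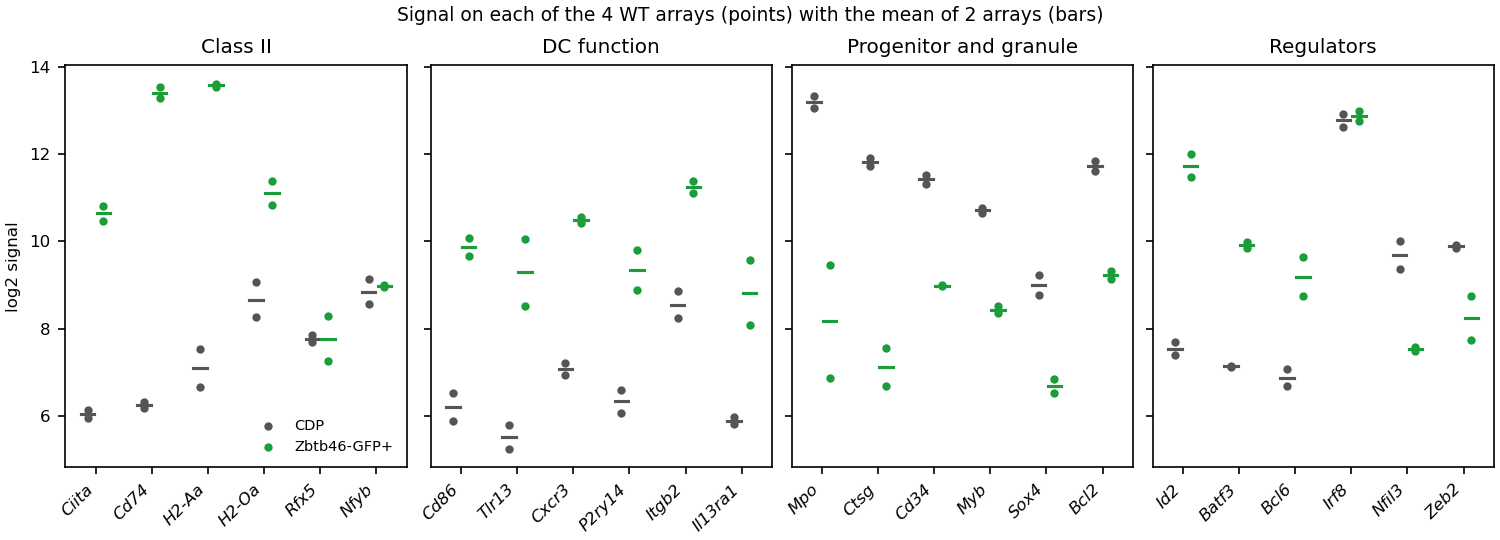
Log2 signal (y axis) of 24 genes on each of the 4 WT arrays, CDP in grey and Zbtb46-GFP+ in green, with a bar at each mean of 2 arrays. Ciita, Cd74, H2-Aa and Id2 are higher on both Zbtb46-GFP+ arrays, Rfx5, Nfyb and Irf8 overlap, and the 2 Zbtb46-GFP+ values of Mpo lie at 9.46 and 6.87.

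Markers of both classical subsets were higher in the Zbtb46-GFP+ population. Of 21 measured cDC1 markers 19 rose and none fell, with a median of 2.80, and 19 were called without any 1 of the 4 arrays. Snx22, a sorting nexin, read 6.13 and 5.98 in CDPs and 9.50 and 10.17 in Zbtb46-GFP+ cells (change 3.78 ± 0.21, SE, adjusted p = 1.51e-06). Gcsam rose by 3.73, Rab7b, an endosomal GTPase, by 2.92, and the septin gene Septin3 by 2.80. Clec9a, the receptor for exposed actin filaments of dead cells, was at 9.90 and 9.67 in CDPs and rose by 1.73 ± 0.14. The markers not called were Irf8 and Cd24a, at 12.93, 12.62, 12.76 and 13 and at 12.35, 12.45, 13.07 and 12.90 in the same array order.

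Of 18 measured cDC2 markers 12 rose and 1 fell, with a median of 0.80; without CDP replicate 1 or CDP replicate 2, 8 were called. Clec4b1, a C-type lectin, read 4.73 and 4.48 in CDPs and 9.24 and 9.26 in Zbtb46-GFP+ cells (change 4.64 ± 0.48, SE, adjusted p = 1.09e-04). The lectin gene Cd209a rose by 3.50 ± 0.34, reading 10.49 and 11.58 in Zbtb46-GFP+ cells, and Irf4, a regulator of cDC2 function, by 2.48 ± 0.33, reading 7.41 and 8.59. Replicate 3 was thus the higher of the 2 Zbtb46-GFP+ arrays for both. The spread was wider still for other cDC2 genes that were not called, each with replicate 3 higher. Clec10a read 7.38 and 9.60, Mgl2 5.86 and 7.57, and Sirpa 9.73 and 11.00. This order was not particular to cDC2 markers. Among cDC1 markers Xcr1 and Cd36 also read higher on replicate 3, while Id2, Batf3 and Ifi205 read lower. Clec10a was called higher without Zbtb46-GFP+ replicate 2 (change 1.70, adjusted p = 0.0180), and Sirpa was called lower without Zbtb46-GFP+ replicate 3 (change -1.36, adjusted p = 0.00520). Clec4a2 rose by 2.19, a call lost without any 1 of the 4 arrays (adjusted p = 0.0788 to 0.124). Cx3cr1, the fractalkine receptor gene, was lower by 0.74 (adjusted p = 0.0158), a call lost without CDP replicate 1 (0.140) or Zbtb46-GFP+ replicate 2 (0.112).

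The pDC list showed no common direction. Of 16 measured markers 4 rose and none fell, with a median of -0.15. Irf7, the interferon regulator, rose by 2.79 ± 0.23 (SE), the chemokine receptor gene Ccr9 by 2.25 ± 0.23 and Pld4, an endosomal nuclease, by 1.23 ± 0.14. Klra17 rose by 1.84 from 4.60 and 4.49, a call lost without CDP replicate 1 (adjusted p = 0.0726) or CDP replicate 2 (0.0681). The surface marker Siglech read 9.69 and 8.51 in CDPs and 8.19 and 9.32 in Zbtb46-GFP+ cells, and Tcf4, the master regulator of pDCs, read 10.89 and 10.48 against 9.67 and 10.49. Both were uncalled, with groups that overlap; Tcf4 was called lower, by 1.02, without Zbtb46-GFP+ replicate 3 (adjusted p = 0.0304).

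Among 32 measured DC transcription factors 11 rose and 5 fell, with a median of 0.23. Id2, an inhibitor of E proteins, rose by 4.19 ± 0.32 (SE, adjusted p = 1.49e-05), from 7.68 and 7.40 to 12 and 11.47. Batf3, the AP-1 factor required for cDC1s, read 7.12 and 7.15 in CDPs and 9.99 and 9.85 in Zbtb46-GFP+ cells (change 2.79 ± 0.18). Bcl6, a repressor needed by cDC1s, rose by 2.32 ± 0.30, Irf5 by 1.91 ± 0.14 and Mycl, a MYC family member used by DCs in place of MYC, by 1.54 ± 0.22. These regulators of later classical DCs were picked from the called rises. Their arrays did not overlap between the stages, as was so for all 2212 called genes and for 44.3% of all genes.

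Nfil3 and Zeb2, regulators that act on opposite sides of the early cDC1 decision, both fell. Nfil3 read 10.01 and 9.36 in CDPs and 7.49 and 7.57 in Zbtb46-GFP+ cells, a change of -2.16 ± 0.27 (SE, adjusted p = 4.56e-04). Zeb2 read 9.92 and 9.85 against 7.74 and 8.75, a change of -1.64 ± 0.29 (adjusted p = 0.00347). The E protein gene Tcf3 fell by 0.84, a call lost without CDP replicate 1 (adjusted p = 0.0714). Bcor, a partner of Bcl6, was lower by 0.72, a call lost without CDP replicate 1 (0.175) or Zbtb46-GFP+ replicate 2 (0.159). Irf8 and Spi1, both needed early in DC development, changed by 0.10 and 0.04 without a call. Id3 read 5.84 and 5.65 against 6.05 and 6.98, uncalled at an adjusted p of 0.06, and was called higher without Zbtb46-GFP+ replicate 2 (change 1.24, adjusted p = 5.93e-04).

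Sensors of microbial products were, where called, higher. Of 25 measured pattern recognition genes 11 rose and none fell, with a median of 0.46; without CDP replicate 2, 6 were called, and without Zbtb46-GFP+ replicate 3, 7. Tlr3, the endosomal receptor for double-stranded RNA, read 5.50 and 5.44 in CDPs and 11.56 and 11.59 in Zbtb46-GFP+ cells (change 6.11 ± 0.14, SE, adjusted p = 2.02e-09). Tlr13, which senses bacterial ribosomal RNA in the mouse, read 5.78 and 5.24 against 8.52 and 10.06 (change 3.79 ± 0.50). The endotoxin receptor gene Tlr4 rose by 1.69 and Tlr1, a receptor for bacterial lipopeptides, by 1.53. Not all Toll-like receptors took part: Tlr7 changed by -0.31 without a call, and the trafficking chaperone gene Unc93b1, which serves the endosomal receptors, changed by -0.02.

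Co-stimulatory genes gave a mixed picture. Of 19 measured genes of co-stimulation and maturation 7 rose and 1 fell, with a median of 0.36; without Zbtb46-GFP+ replicate 3, 5 were called. Cd86, the ligand of CD28 on T cells, read 6.53 and 5.88 in CDPs and 9.67 and 10.07 in Zbtb46-GFP+ cells (change 3.67 ± 0.30, SE, adjusted p = 2.23e-05). Cd200, an inhibitory ligand, rose by 1.86, Marcks, an actin-binding substrate of protein kinase C, by 1.61, and Icosl by 1.53. Marcksl1, a relative of Marcks, moved the opposite way, from 10.82 and 11.05 to 9.17 and 9.74 (change -1.48 ± 0.26). Members not called included the chemokine receptor gene Ccr7 with a change of -0.28, the actin bundler gene Fscn1 with 0.36 and Il12b with -0.06.

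Receptors of the SLAM and Fc families rose in part. Of 21 measured genes 10 rose and none fell, with a median of 0.69. Slamf7 read 6.02 and 5.70 in CDPs and 11.34 and 11.53 in Zbtb46-GFP+ cells (change 5.57 ± 0.15, SE, adjusted p = 7.2e-09). Slamf8 rose by 4.36 ± 0.42, the immunoglobulin G receptor gene Fcgr4 by 2.53 and Fcrla, an intracellular Fc receptor-like protein, by 2.48. The shared signalling chain Fcer1g was not called, with overlapping groups at 11.97 and 11.75 against 11.71 and 11.94. On chromosome 1 the neighbours Fcrla, Fcgr2b and Fcgr4 were all called higher, by 1.20 to 2.53.

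**Figure D3:**
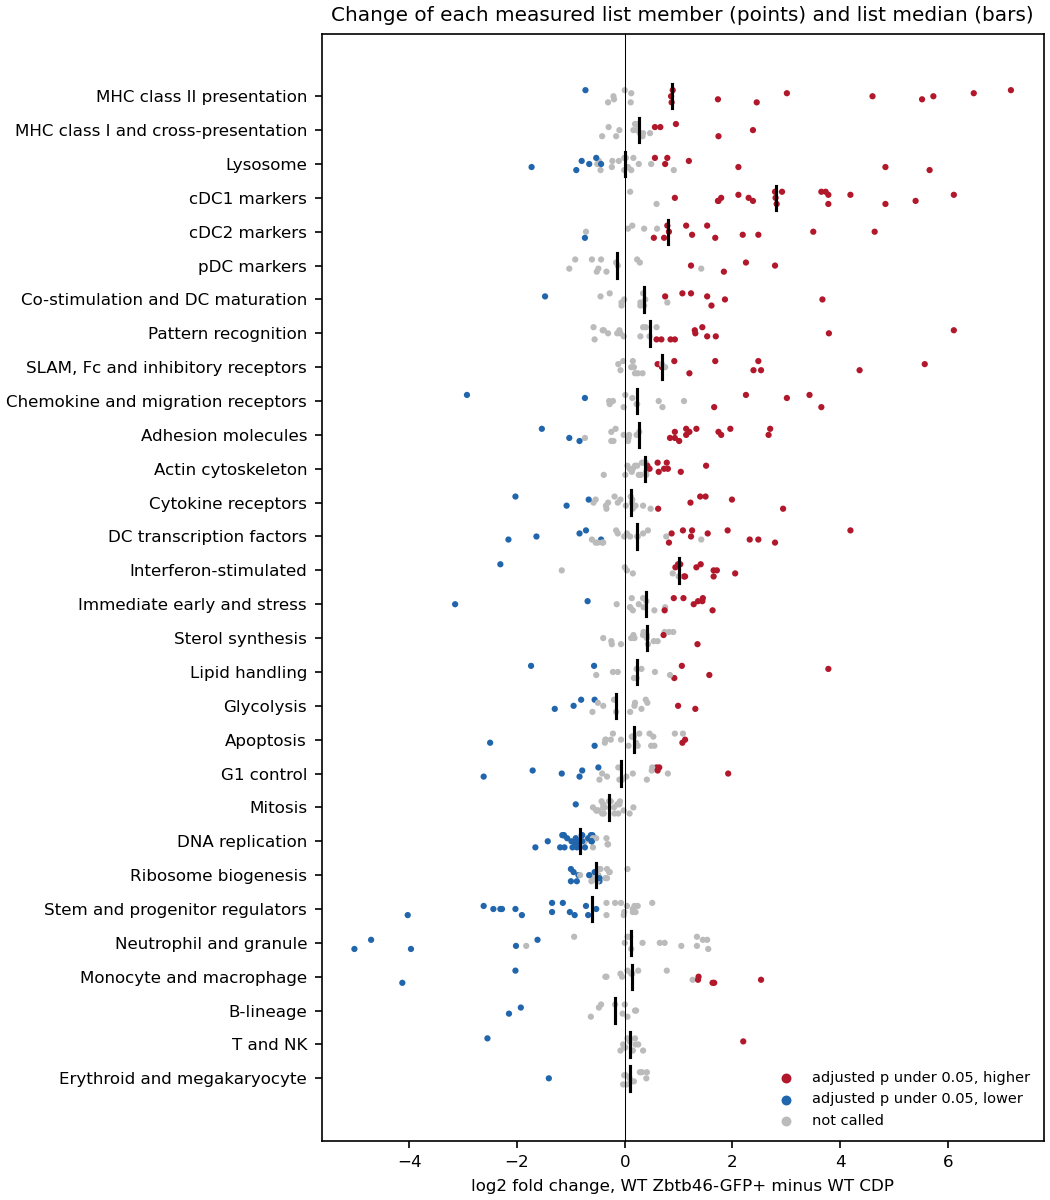
Log2 fold change of every measured member of the gene lists (points; x axis, WT Zbtb46-GFP+ minus WT CDP) with the list median as a bar; red and blue points have an adjusted p under 0.05. The class II list reaches farthest to the right, followed by the cDC1 and pattern recognition lists, which share Tlr3. The DNA replication list lies wholly below 0, and the mitosis list lies close to 0.

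Receptors that position cells changed in both directions. Of 18 chemokine and migration receptors 5 rose and 2 fell, with a median of 0.23. Cxcr3, which guides cells to interferon-induced chemokines, read 7.21 and 6.93 in CDPs and 10.42 and 10.56 in Zbtb46-GFP+ cells (change 3.43 ± 0.20, SE, adjusted p = 1.79e-06). Xcr1, the receptor that defines mature cDC1s, rose by 3.65 ± 0.30 and P2ry14, a receptor for UDP-sugars, by 3.01 ± 0.28. S1pr3, a sphingosine-1-phosphate receptor, fell from 10.05 and 9.59 to 6.86 and 6.92 (change -2.93 ± 0.21). Cxcr4, the receptor that holds progenitors in the marrow, was not called, with 12.78 and 12.75 against 12.46 and 12.47.

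Of 27 adhesion genes 13 rose and 3 fell, with a median of 0.27. Itgb2, the common beta chain of the leukocyte integrins, read 8.86 and 8.24 in CDPs and 11.12 and 11.39 in Zbtb46-GFP+ cells (change 2.70 ± 0.23, SE, adjusted p = 2.88e-05). The tetraspanin gene Cd9 rose by 2.67, Alcam, the ligand of CD6, by 1.96, and Cadm1, a cDC1 adhesion molecule, by 1.79. The alpha chains that pair with Itgb2 did not move alike: Itgax, which encodes CD11c, rose by 1.74 and Itgam by 1.14 (a call lost without CDP replicate 2, adjusted p = 0.0919, or Zbtb46-GFP+ replicate 3, 0.0984), while Itgal read 10.25 and 10.25 against 9.86 and 10.30 without a call. Pecam1 fell by 1.54, Icam2 by 1.03 and Itgb5 by 0.84, all of them genes also used by endothelium.

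Of 24 genes of the actin cytoskeleton 9 rose and none fell, with a median of 0.37. Lsp1, an actin-binding protein of leukocytes, read 11.59 and 11.17 in CDPs and 12.79 and 13 in Zbtb46-GFP+ cells (change 1.51 ± 0.16, SE, adjusted p = 1.13e-04). Evl, an actin polymerisation factor, rose by 1.04, Dock10, an activator of small GTPases, by 0.80 and the myosin gene Myo1g by 0.78. The rises in this list were small, and 5 genes were called without CDP replicate 1, 4 without CDP replicate 2 and 4 without Zbtb46-GFP+ replicate 3.

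Cytokine receptors changed in both directions, with 6 of 25 higher, 3 lower and a median of 0.11. Csf1r, the receptor for macrophage colony-stimulating factor and a gene by which CDPs are commonly sorted, fell from 11.15 and 11.13 to 8.83 and 9.40 (change -2.03 ± 0.22, SE, adjusted p = 1.69e-04). Csf3r, the granulocyte factor receptor gene, fell by 1.08 ± 0.17. Il13ra1 rose from 5.96 and 5.80 to 8.07 and 9.57 (change 2.94 ± 0.43), and Ifngr1, the ligand-binding chain of the interferon gamma receptor, rose by 1.99 while its partner Ifngr2 changed by 0.34 without a call. Il10ra rose by 1.40, a call lost without CDP replicate 2 (adjusted p = 0.0539). Il6st, the shared signalling chain gp130, was lower by 0.67, a call lost without CDP replicate 1 (0.0924), CDP replicate 2 (0.0921) or Zbtb46-GFP+ replicate 2 (0.156).

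Genes of stem and progenitor cells fell. Of 28 measured regulators none rose and 15 fell, with a median of -0.61; without CDP replicate 1, 9 were called. Cd93, a surface receptor of early progenitors, went from 11.63 and 11.62 to 7.39 and 7.81 (change -4.03 ± 0.19, SE, adjusted p = 5.83e-07). Cdk6, the kinase that drives progenitors into the cell cycle, fell by 2.62 ± 0.16 and the sialomucin gene Cd34 by 2.44 ± 0.15. Sox4 and Myb, transcription factors of proliferating progenitors, fell by 2.31 and 2.28, and Erg, a stem cell ETS factor, by 1.91. The list did not fall as one: Fli1, an ETS relative of Erg, changed by 0.04, Myc read 10.97 and 10.93 against 10.56 and 10.66 without a call, and Cebpa and Gfi1 changed by -0.01 and -0.18.

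Primary granule genes of the neutrophil lineage held the largest falls of the step, Mpo and Ctsg. Myeloperoxidase, Mpo, read 13.05 and 13.33 in CDPs and 9.46 and 6.87 in Zbtb46-GFP+ cells, a change of -5.02 ± 0.58 (SE, adjusted p = 2.41e-04). Ctsg, which encodes cathepsin G, fell by 4.71 ± 0.24, from 11.72 and 11.92 to 7.55 and 6.67. Prtn3 fell by 3.97 ± 0.22 and Elane by 2.02 ± 0.33. In all 4, replicate 2 was the higher of the Zbtb46-GFP+ arrays, by the widest margin for Mpo.

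The 250 bases before Mpo, Prtn3 and Ctsg are shown because these are the granule genes that fell most; the capitals mark GAGGAAGT, a motif read by the myeloid factor PU.1, which Spi1 encodes (RefSeq, GRCm38.p6, gene strand, 5′ to 3′). The regions are chr11:87793534-87793783 on the plus strand for Mpo, chr10:79879417-79879666 on the plus strand for Prtn3 and chr14:56102575-56102824 on the minus strand for Ctsg.
Mpo: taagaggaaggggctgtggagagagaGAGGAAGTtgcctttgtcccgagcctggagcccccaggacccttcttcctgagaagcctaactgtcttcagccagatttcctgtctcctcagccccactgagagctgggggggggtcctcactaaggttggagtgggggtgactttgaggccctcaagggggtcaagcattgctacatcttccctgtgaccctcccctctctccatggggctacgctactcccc
Prtn3: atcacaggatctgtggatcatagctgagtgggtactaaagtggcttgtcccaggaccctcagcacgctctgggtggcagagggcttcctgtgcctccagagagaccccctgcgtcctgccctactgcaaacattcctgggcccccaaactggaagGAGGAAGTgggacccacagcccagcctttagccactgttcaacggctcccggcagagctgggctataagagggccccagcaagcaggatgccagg
Ctsg: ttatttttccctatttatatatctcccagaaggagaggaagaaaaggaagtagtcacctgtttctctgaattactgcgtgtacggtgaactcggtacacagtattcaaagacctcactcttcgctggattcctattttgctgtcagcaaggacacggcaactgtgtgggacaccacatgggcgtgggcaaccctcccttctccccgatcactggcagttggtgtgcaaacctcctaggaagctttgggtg
The motif lay at bases -224 to -217 of Mpo and -95 to -88 of Prtn3, and these exact letters are not in this window of Ctsg. On both strands it was in 2.44% of 32851 promoters and in 5 of the 18 neutrophil and granule genes with a promoter in the table: Elane, Mmp8, Mpo, Prtn3 and S100a8. Those 5 did not share a direction, since S100a8 was higher by 1.45 and Mmp8 lower by 0.94, both without a call. TTGCNNAA, a form of the C/EBP motif, was in 6 of the 18 and in 9.56% of all promoters. Genes and promoters were counted as for the Y box.

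Over the whole neutrophil and granule list of 20 measured genes none rose and 5 fell, with a median of 0.11. Several later granule genes were higher on both Zbtb46-GFP+ arrays without a call. Ltf, the secondary granule protein lactoferrin, read 9.85 and 8.07 in CDPs and 10.13 and 10.85 in Zbtb46-GFP+ cells. S100a8, an abundant calcium-binding protein of mature neutrophils, read 10.51 and 9.35 against 11.31 and 11.44. Camp, Lcn2, Ngp and S100a9 had the same order, with CDP replicate 2 lowest and changes of 1.05 to 1.55, and none of the 6 was called; without CDP replicate 1, Ngp was (change 1.86, adjusted p = 0.0378). The fit on the 4 WT arrays alone called 5 members of the list higher and 6 lower. The list's summed signal, on the log2 scale, was 14.75 to 14.91 in CDPs and 14.28 to 14.42 in Zbtb46-GFP+ cells. The part that neutrophil-lineage RNA in the sorted cells has in these values was not tested. On chromosome 10 the neighbours Plppr3, Prtn3 and Elane all fell (changes of -3.97 to -2.02).

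Of 17 monocyte and macrophage markers 5 rose and 2 fell, with a median of 0.14. F13a1, the clotting factor chain of monocytes, fell from 11.43 and 11.59 to 7.29 and 7.47 (change -4.13 ± 0.17, SE, adjusted p = 2.14e-07). The chemokine receptor gene Ccr2 rose by 1.66 ± 0.17, the lysozyme gene Lyz1 by 1.37 and Ms4a4c by 1.36. Lyz2 rose by 1.63, a call lost without CDP replicate 2 (adjusted p = 0.101), Zbtb46-GFP+ replicate 2 (0.0590) or Zbtb46-GFP+ replicate 3 (0.0711); the paralogs Lyz1 and Lyz2 can share probes. The second fall of the list was that of Csf1r (-2.03) and its largest rise that of Fcgr4 (2.53), both given above. Members not called included Cd14, Fcgr1 and Mertk, with changes of -0.08, 0.12 and 0.14.

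Genes of other lineages were called at shares of 18.2% (B-lineage), 15.4% (T and NK) and 8.33% (erythroid and megakaryocyte), against 11.1% of all genes. Of 11 B-lineage genes none rose and 2 fell: Vpreb1, a surrogate light chain, from 8.68 and 8.28 to 6.28 and 6.38 (change -2.15 ± 0.29, SE), and Dntt, the terminal transferase, from 7.32 and 6.65 to 4.86 and 5.25 (change -1.93 ± 0.34). Of 13 T and NK genes Nkg7, a cytotoxic granule protein, fell by 2.55 ± 0.21, from 8.98 and 8.76 to 6.24 and 6.40, and Klrd1, the receptor chain CD94, rose by 2.20 ± 0.32, from 8.01 and 7.30 to 9.37 and 10.35. Of 12 erythroid and megakaryocyte genes only the transferrin receptor gene Tfrc, which all dividing cells use, was called, lower by 1.41; that call was lost without CDP replicate 1 (adjusted p = 0.103) or Zbtb46-GFP+ replicate 2 (0.0851). Members not called included the B-cell gene Cd79a, which read 4.57 to 4.98 over the 4 arrays. The T-cell genes Cd3e (6.77 to 7.18) and Cd3g (4.53 to 5.14) were not called either. Nor were the NK-cell gene Ncr1 (4.80 to 4.93) and the erythroid gene Gata1 (5.87 to 6.28). The summed signal of the B-lineage list, on the log2 scale, was 10.36 to 10.64 in CDPs and 9.81 to 9.82 in Zbtb46-GFP+ cells, that of the T and NK list 10.29 to 10.43 and 10.51 to 10.99, and that of the erythroid and megakaryocyte list 10.50 to 10.64 and 10.07 to 10.29. The part of such cells in other results was not tested.

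The machinery of DNA replication fell, while a single mitosis gene was called. The shares called were 78.8% and 4.35% of these lists, against 11.1% of all genes. Of 33 measured replication genes none rose and 26 fell, and all 33 were lower on both Zbtb46-GFP+ arrays than on both CDP arrays, as were 22.9% of all genes. The median change was -0.84. Mcm2, a subunit of the replicative helicase, read 11.62 and 11.48 in CDPs and 9.97 and 10.27 in Zbtb46-GFP+ cells (change -1.43 ± 0.17, SE, adjusted p = 2.73e-04). Orc1, the origin recognition subunit, fell by 1.66 ± 0.25, Cdt1, which loads the helicase, by 1.20 ± 0.16 and Gins1 by 1.16 ± 0.21. All 6 helicase genes Mcm2 to Mcm7 were called, and the smallest and largest called falls corresponded to 1.52-fold and 3.16-fold lower signal.

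Of 23 measured mitosis genes 1 was called, Cdc20, an activator of the anaphase-promoting complex, lower by 0.91; without Zbtb46-GFP+ replicate 2, 3 mitosis genes were called, and without CDP replicate 1 or Zbtb46-GFP+ replicate 3 limma called 0, against 1 and 3 at an unadjusted p under 0.05. The median was -0.29, and 21 members were below 0, of which 11 were lower on both Zbtb46-GFP+ arrays, as were 22.9% of all genes. Mki67, which encodes the proliferation antigen Ki-67, read 12.49 and 12.34 in CDPs and 12.56 and 12.10 in Zbtb46-GFP+ cells, with overlapping groups. The kinase gene Cdk1 changed by -0.52 without a call and was called lower without Zbtb46-GFP+ replicate 2 (change -0.89, adjusted p = 0.0363); Top2a changed by -0.29 without a call. The difference between the replication and mitosis lists was not itself tested. Within the replication list Pcna, at 12.94 and 12.88 against 12.71 and 12.48, and Rrm2, at 10.76 and 10.51 against 10.22 and 10.41, moved least and were not called. All 33 replication genes were also below 0 after quantile normalization (median -0.76) and after centring on the 75th percentile (median -0.73), where 20 and 18 mitosis genes were below 0. The count of 26 fell to 13 without CDP replicate 1 and to 17 without Zbtb46-GFP+ replicate 3. Cdc20's call was lost without CDP replicate 1 (adjusted p = 0.210) or Zbtb46-GFP+ replicate 3 (0.183), and that of Gins1 without CDP replicate 1 (0.0502).

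**Figure D4:**
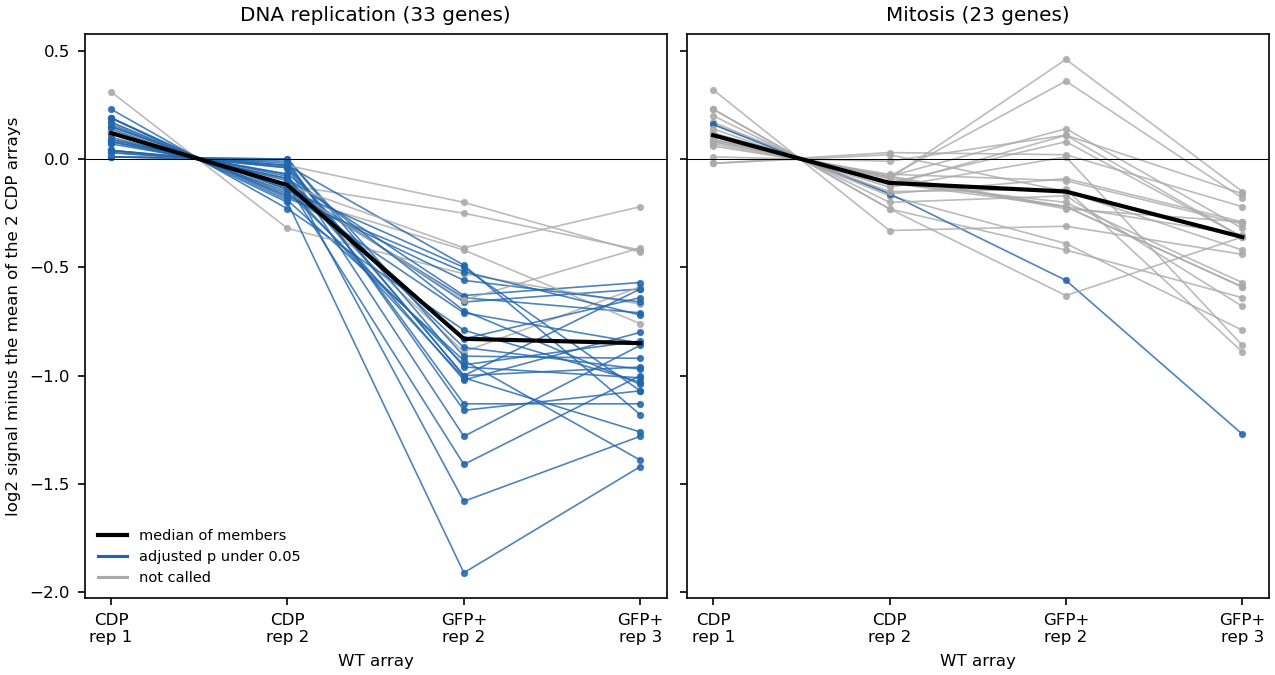
Log2 signal of each DNA replication gene (left, 33 genes) and each mitosis gene (right, 23 genes) on the 4 WT arrays, relative to that gene's mean over the 2 CDP arrays; thin lines join the values of 1 gene, blue where the adjusted p was under 0.05, and the black line joins the medians. The replication genes lie below 0 on both Zbtb46-GFP+ arrays, and the mitosis genes lie on both sides of 0 on replicate 2.

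Genes that govern entry into the cell cycle changed in both directions, with 4 of 22 higher, 6 lower and a median of -0.07; without CDP replicate 1, 5 were called, and without CDP replicate 2 or Zbtb46-GFP+ replicate 2, 6. Ccnd2, a cyclin D, fell from 12.35 and 12.16 to 10.68 and 10.41 (change -1.71 ± 0.15, SE, adjusted p = 2.92e-05), whereas the other D cyclins Ccnd1 and Ccnd3 changed by 0.41 and 0.03 without a call. With Ccnd2 fell its partner kinase gene Cdk6, given above, and Cdk4 by 0.79 ± 0.11. E2f3, an activator of S-phase genes, fell by 1.17 ± 0.21. Btg2, an antiproliferative gene, rose from 8.44 and 7.97 to 10.03 and 10.23 (change 1.92 ± 0.16). E2f1 was lower by 0.84, a call lost without CDP replicate 1 (adjusted p = 0.103) or Zbtb46-GFP+ replicate 2 (0.0833).

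Ribosome biogenesis was lower by less. Of 24 measured genes none rose and 9 fell, where 6.38% of all genes were called lower, and the median was -0.53. On both Zbtb46-GFP+ arrays 23 were lower than on both CDP arrays, as were 22.9% of all genes. Wdr12, a factor of the large subunit, read 10.16 and 9.94 in CDPs and 9.12 and 8.99 in Zbtb46-GFP+ cells (fell by 1.00 ± 0.16, SE, adjusted p = 0.00187). Nolc1, a nucleolar chaperone, fell by 0.95 and Dkc1, the pseudouridine synthase, by 0.89. Heatr1 was lower by 1.00, a call lost without CDP replicate 1 (adjusted p = 0.0860) or Zbtb46-GFP+ replicate 2 (0.0767). The list's count depended on single arrays, with 3 called without CDP replicate 1 or Zbtb46-GFP+ replicate 2 and 5 without CDP replicate 2.

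Metabolic lists moved gene by gene. Of 17 glycolysis genes 2 rose and 4 fell, with a median of -0.16. The hexokinase gene Hk3 fell from 8.96 and 8.92 to 7.79 and 7.50 (change -1.30 ± 0.13, SE, adjusted p = 1.07e-04), and Tpi1 and Pgam1 fell by 0.95 and 0.81. Pfkp, a phosphofructokinase, rose by 1.31 ± 0.21. Aldoc rose by 0.99, a call lost without CDP replicate 1 (adjusted p = 0.0804), CDP replicate 2 (0.0509) or Zbtb46-GFP+ replicate 3 (0.0758), and Aldoa was lower by 0.56, a call lost without CDP replicate 2 (0.0936) or Zbtb46-GFP+ replicate 2 (0.0942). Lactate dehydrogenase, Ldha, changed by -0.20 without a call.

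Of 19 sterol synthesis genes 2 rose and none fell, with a median of 0.41. The share called was 10.5%, near the 11.1% of all genes. Quantile normalization or centring on the 75th percentile called 6 higher. Srebf2, the transcription factor that drives the pathway, read 9.78 and 9.33 in CDPs and 10.69 and 11.12 in Zbtb46-GFP+ cells (change 1.35 ± 0.19, SE, adjusted p = 9.55e-04). Fdft1, squalene synthase, rose by 0.72, a call lost without CDP replicate 2 (adjusted p = 0.106) or Zbtb46-GFP+ replicate 3 (0.0993). The other measured enzymes, Hmgcs1 among them with a change of 0.90, did not pass the test. Of 15 lipid handling genes 4 rose and 2 fell, with a median of 0.22. Cd36, a scavenger receptor for fatty acids and dead cells, read 4.32 and 4.35 in CDPs and 7.78 and 8.44 in Zbtb46-GFP+ cells, and the droplet coat gene Plin2 rose by 1.57 and the transfer protein gene Pltp by 1.06. Fabp5, a fatty acid carrier, fell by 1.74 ± 0.19.

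Survival genes changed in both directions, and 17.4% of the list was called, against 11.1% of all genes. Of 23 apoptosis genes 2 rose and 2 fell, with a median of 0.17; without CDP replicate 1, 2 were called. Bcl2 fell from 11.84 and 11.62 to 9.14 and 9.32 (change -2.50 ± 0.16, SE, adjusted p = 3.73e-06). Mcl1, another antiapoptotic family member, rose from 9.23 and 9.17 to 10.27 and 10.26 (change 1.07 ± 0.14). Bcl2l1, a further such gene, changed by -0.22 without a call. Bmf, which opposes them, rose by 1.12, a call lost without CDP replicate 1 (adjusted p = 0.0580). Bid was lower by 0.56, a call lost without CDP replicate 1 (0.279), Zbtb46-GFP+ replicate 2 (0.175) or Zbtb46-GFP+ replicate 3 (0.0674).

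Interferon-stimulated genes rose in part. Of 18 measured 11 rose and 1 fell, with a median of 1.02. Mx1, a dynamin-like antiviral GTPase, read 6.30 and 6.51 in CDPs and 7.85 and 8.39 in Zbtb46-GFP+ cells (change 1.71 ± 0.18, SE, adjusted p = 1.54e-04). Usp18, which damps interferon signalling, rose by 1.65 ± 0.31. Rtp4 rose by 2.05, a call lost without CDP replicate 1 (0.0598) or Zbtb46-GFP+ replicate 3 (adjusted p = 0.0604), and Oasl2 by 1.65, a call lost without CDP replicate 1 (0.127), CDP replicate 2 (0.0625) or Zbtb46-GFP+ replicate 3 (0.146). Gbp3 opposed the list, falling from 9.39 and 9.56 to 6.98 and 7.34 (change -2.31 ± 0.21), while its relatives Gbp8, Gbp9 and Gbp4, which with Abcg3 form a run on chromosome 5, rose by 1.24 to 1.75. All 4 calls of that run were lost without CDP replicate 1 (adjusted p = 0.0534 to 0.0970), and those of Gbp4 and Gbp9 also without CDP replicate 2 (0.161 and 0.0858) or Zbtb46-GFP+ replicate 3 (0.183 and 0.148). The list's count was 5 without Zbtb46-GFP+ replicate 3, 6 without CDP replicate 1 and 7 without CDP replicate 2.

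Immediate early and stress genes changed too, with 8 of 21 higher, 2 lower and a median of 0.40. Zfp36, which destabilises cytokine mRNA, read 7.21 and 7.52 in CDPs and 8.72 and 8.90 in Zbtb46-GFP+ cells (change 1.45 ± 0.16, SE, adjusted p = 1.69e-04). The nuclear receptor gene Nr4a1 rose by 1.44 and Junb by 1.36. Members not called included Fos, at 7.02 and 7.45 against 7.91 and 7.67 and so higher on both Zbtb46-GFP+ arrays, Jun with a change of 0.15 and Egr1 with 0.10. Dusp1 rose by 1.63 and read 10.70 and 9.25 on the Zbtb46-GFP+ arrays; its call was lost without CDP replicate 1 (adjusted p = 0.204), CDP replicate 2 (0.115) or Zbtb46-GFP+ replicate 2 (0.313). Cd69, an activation marker that holds lymphocytes in tissue, fell by 3.15 ± 0.25, from 9.77 and 9.57 to 6.48 and 6.55. Dusp2 was lower by 0.69, a call lost without CDP replicate 1 (0.261), Zbtb46-GFP+ replicate 2 (0.0903) or Zbtb46-GFP+ replicate 3 (0.114).

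Many of the largest changes lay outside these lists. Serpinb10, a leukocyte serpin, read 6.21 and 5.44 in CDPs and 10.83 and 11.00 in Zbtb46-GFP+ cells, a change of 5.09 ± 0.46 (SE, adjusted p = 4.7e-05). Samd9l, an antiviral factor, rose by 5.06 ± 0.40, Cd226, an adhesion receptor best known on T and NK cells, by 4.80 ± 0.16, and Anpep, the surface peptidase CD13, by 5.59 ± 0.38. Slc46a3, a lysosomal transporter, rose by 4.58, P2ry10, a lysophospholipid receptor, by 4.27, Shtn1 by 4.24 and Slfn5 by 3.92. On chromosome 14 the neighbouring relatives Phf11a, Phf11d and Phf11c rose by 1.96 to 4.39, on chromosome 6 Hipk2, Tbxas1 and Parp12 by 1.27 to 2.43, and on chromosome 13 the NAIP sensor genes Naip2, Naip5 and Naip6 by 1.08 to 1.34; near-identical copies such as the NAIP genes can share probes.

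Adhesion G protein-coupled receptors stood on both sides. Adgre5, which encodes CD97, read 7.31 and 6.68 in CDPs and 11.51 and 12.06 in Zbtb46-GFP+ cells, a rise of 4.79 ± 0.37 (SE, adjusted p = 1.49e-05). Adgrg3 fell from 10.67 and 10.56 to 6.93 and 7.08 (change -3.61 ± 0.17), Adgrl4 by 3.59, Adgrg1, a receptor of stem cells, by 3.27 and Adgrg7 by 2.66. Adgrg1 and Adgrg3 are neighbours on chromosome 8 together with Drc7, which fell by 3.09, and are related in sequence. These receptors were grouped after their values were seen. Among the other large falls, Igfbp4, which encodes a binding protein of insulin-like growth factors, changed by -3.84 ± 0.12 and Rab44 by -3.32. Cd27, a TNF receptor family member of lymphoid-primed cells, changed by -3.11, the cystatin gene Cst7 by -3.04 and Il12a by -2.77.

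The step between the same labels was measured in the knockout groups, each with its own CDP arrays, so these comparisons share no sample. Of the genes behind the sort, Kit was called higher in both knockout steps and Zbtb46 in neither. Zbtb46 changed by 0.15 in Batf3 KO and by 0.20 in Id2 KO (adjusted p = 0.739 and 0.656 in limma). The WT step of Zbtb46 was larger by 0.93 and 0.88, differences that were not called (adjusted p = 0.332 and 0.148). Whether the gate took cells of the same stage in each genotype was not tested. The deleted genes were also set against the labels. Batf3 read 6.96 and 7.25 on the CDP arrays of Batf3 KO and 6.89 and 7.32 on its Zbtb46-GFP+ arrays, a change of -0.00, against 2.79 in WT. Id2 read 7.08 and 5.96 on the CDP arrays labelled Id2 KO and 8.39 and 8.82 on the Zbtb46-GFP+ arrays, a called rise of 2.09 (adjusted p = 0.00259 in limma), where the WT Zbtb46-GFP+ arrays read 12 and 11.47. The Id2 signal was thus below WT and still rose with the step on the arrays labelled Id2 KO, and the difference between those steps was not called (2.10 ± 0.45, SE, adjusted p = 0.106). Which part of each gene the probes cover was not examined, and the direction of every comparison with Id2 KO rests on its label.

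Of the 940 genes higher in WT, 98.6% had the same sign in Batf3 KO and 96.4% had it in Id2 KO; of the 1272 lower genes the shares were 99.5% and 95.4%, and over all genes 77.4% and 72.3%. Over all genes the Batf3 KO step called 7.18% and the Id2 KO step 6.82%. The Batf3 KO step called 55.0% of the WT genes the same way, which is 84.9% of its own calls. The Id2 KO step called 44.8% of them, which is 73.0% of its own calls. In all 3 steps 440 genes were higher and 348 lower, while 789 of the WT calls were called in neither knockout. Of the 33 replication genes 14 were called lower in Batf3 KO and 5 in Id2 KO, where 3.32% and 2.98% of all genes were; none of the 33 passed the test of the difference from the WT step.

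That test, the WT step minus the knockout step, called 19 genes (0.0953%) against Batf3 KO and 64 (0.321%) against Id2 KO; the WT step was the more positive in 16 and in 41 of them. Of the 21 measured cDC1 markers, 8 passed it against Batf3 KO, Batf3 itself among them, and 12 against Id2 KO, Id2 itself not among them, while none of the 18 class II presentation genes and none of the 18 cDC2 markers did in either. The mouse type differs between WT and Batf3 KO, chimeric against not labelled so, and cannot be told apart from the genotype. Gpr141b, an orphan receptor, rose by 5.45 in WT, whereas its change was 0.74 in Batf3 KO and 0.60 in Id2 KO; the differences were 4.71 ± 0.43 (SE, adjusted p = 9.46e-04) and 4.85 ± 0.43 (adjusted p = 0.00118). Cd36 rose by 3.78 in WT against 0.20 and 0.60, with adjusted p = 9.41e-04 and 0.00154.

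Tlr3 rose by 6.11 in WT and by 2.21 in Id2 KO, a difference of 3.90 ± 0.19 (SE, adjusted p = 1.06e-05). Xcr1 rose by 3.65 in WT against 0.49 and 0.51; its difference from Batf3 KO (3.16, adjusted p = 0.0211) lost its call without CDP replicate 1 (0.0963), CDP replicate 2 (0.0657) or Zbtb46-GFP+ replicate 3 (0.0514), and that from Id2 KO (3.14, adjusted p = 0.0111) without CDP replicate 1 (0.0562). Ifi205, an interferon-inducible gene, differed from Batf3 KO by 2.90, a call lost without CDP replicate 2 (0.103) or Zbtb46-GFP+ replicate 3 (0.0514). Naaa differed from Id2 KO by 3.18, a call lost without CDP replicate 2 (0.102), Zbtb46-GFP+ replicate 2 (0.0659) or Zbtb46-GFP+ replicate 3 (0.108).

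Some falls of the WT step were smaller in Id2 KO. Cd93 fell by 4.03 in WT and by 1.70 in Id2 KO, a difference of -2.33 ± 0.27 (SE, adjusted p = 0.00520). Igfbp4 fell by 3.84 in WT and by 2.04 in Id2 KO (difference -1.80 ± 0.17, adjusted p = 0.00154), and Klrb1f, a lectin-like receptor, by 2.77 and 1.03 (difference -1.74, adjusted p = 0.00625). Nfil3 fell by 2.16 in WT and was at 0.44 in Id2 KO, a difference of -2.60 ± 0.38 (adjusted p = 0.0197) whose call was lost without CDP replicate 1 (0.0698). The glutamate receptor subunit gene Gria3 differed by -2.21 (adjusted p = 0.0229), a call lost without CDP replicate 1 (0.0937) or CDP replicate 2 (0.0761). With all 15 arrays fitted and a term for those on the other scale, the differences of Nfil3, Gria3, Igfbp4 and Klrb1f were not called (adjusted p = 0.0540 to 0.423), nor were those of Xcr1 from Batf3 KO (0.304) and Id2 KO (0.111) and that of Batf3 from Batf3 KO (0.222). Centring on the 75th percentile lost the differences of Xcr1 from Batf3 KO (0.0815) and of Klrb1f from Id2 KO (0.0570), and adding 16 before the log that of Naaa (0.0689). Of the genes named by rule for their change, as list members or as regulators, 22 had a called difference. Against Batf3 KO the WT step was the more positive in 9 of them and the more negative in 0, and against Id2 KO in 11 and 8. Naming genes for a large called change in WT favours a larger WT step, so these counts are no independent result. Other genes named in the text are not in these counts.

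**Figure D5:**
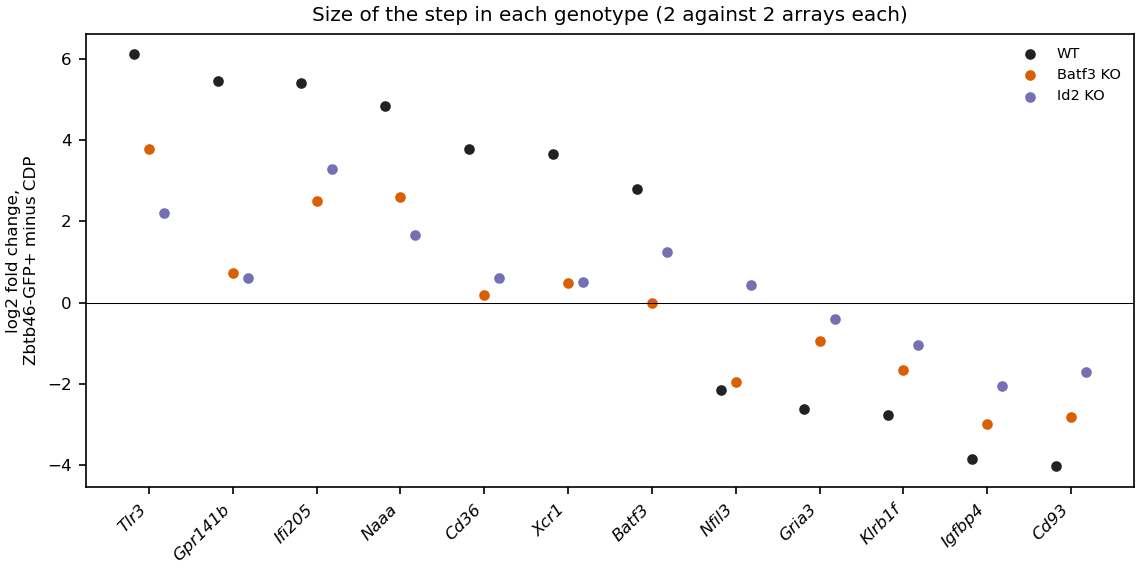
Log2 fold change of the step (y axis, Zbtb46-GFP+ minus CDP, 2 against 2 arrays) in WT (black), Batf3 KO (orange) and Id2 KO (violet). Shown are 12 of the 22 genes named by rule that had a called difference between steps, those with the largest differences, up to 5 per knockout and direction. Gpr141b, Cd36 and Xcr1 are near 0 in both knockouts, and Batf3 is at 0 in Batf3 KO.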

How the data were processed

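The authors deposited an intensity per probe set on a linear scale, with Affymetrix Expression Console and RMA named, without versions, in the submitters' processing notes. Per the labels' protocols, marrow cells were sorted, RNA was column-purified, and the WT Pico reagents gave biotinylated cDNA. Here log2 was taken. Of 28853 probe sets 21789 carried a single gene symbol in the platform annotation, 1621 several and 5443 none; the brightest per symbol gave 19938 genes, 999 of which had more than 1. RefSeq tables (GRCm38.p6) supplied names, gene order and upstream sequence.

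The fit used limma 3.58.1 in R 4.3.3 on the 12 arrays on one scale: 6 group means, empirical Bayes, 6 residual degrees of freedom, two-sided, Benjamini-Hochberg over all genes. On simulated data for the WT step (19938 genes) 74 of 100 genes changed by 1 and 95 of 100 changed by 2 were called, with 7 false calls among 176. The measured step had 2212 calls, so far fewer genes changed in the simulation. Its counts describe the simulated setting only and give no share of false calls for the measured step. Correlations across genes were 0.990 between the WT CDP arrays, 0.986 between the Zbtb46-GFP+ arrays and 0.957 to 0.965 between stages. The number of arrays limits the precision.

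Members and the 31 gene lists (682 names, 51 not measured) were chosen with earlier results of these data known. By rule, the text names from the 25 largest called rises and 25 largest falls whose arrays do not overlap, up to 4 called members per list and direction, fixed regulators, and runs of 3 or more called neighbours changed by at least 1. Among the genes of largest change, the list members and the regulators so chosen, it names up to 5 called differences per knockout and direction. Other genes named, uncalled members among them, were chosen after their values were seen. The sex-linked list held no called gene among 4. Alternatives were other array sets, normalizations, filters, scales, variance models, probe set rules and leaving out each WT array.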

Additional observations from a re-analysis of the deposited data

Results flagged for a closer look

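The WT step differed from a knockout step, by the test of the difference itself, for genes given here as WT step minus knockout step on the log2 scale. Against Batf3 KO these were Gpr141b (4.71), Cd36 (3.58), Xcr1 (3.16), Ifi205 (2.90) and Batf3 (2.79), the last of which is the deleted gene. Against Id2 KO the WT step was more positive for Gpr141b (4.85), Tlr3 (3.90), Cd36 (3.18), Naaa (3.18) and Xcr1 (3.14). It was more negative for Nfil3 (-2.60), Cd93 (-2.33), Gria3 (-2.21), Igfbp4 (-1.80) and Klrb1f (-1.74).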

How the results depend on the processing

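The WT step called 2212 genes, and 1 with all 15 arrays as deposited (214 at an unadjusted p under 0.05), where the median change of all genes was -0.67. Leaving out 1 WT array gave 1183 to 1778, and 917 of the 2212 genes were called in all 4 of these fits. A replicate block, by number, gave 1682 on 12 arrays and 25 on 15. Whether the numbers pair the arrays is not given in the labels and cannot be settled here. Only number 2 is shared between the stages on the 12 arrays. The correlation of its residuals between stages was 0.52 in WT, -0.62 in Batf3 KO and -0.53 in Id2 KO. A block of array sets, in each group the array with the higher 75th percentile against the other, was chosen after seeing the data and gave 4829. The causes of these shifts were not tested.

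The difference from the Batf3 KO step called 19 genes: 0 on 15 arrays as deposited, 8 with a term for the 3 arrays, 8 to 41 without 1 WT array, 0 with the replicate block on 15 arrays and 42 with array sets. That from the Id2 KO step called 64: 0, 20, 29 to 91, 0 and 373 in the same order, 158 after quantile normalization and 120 with the replicate block on 12 arrays. Of 187.0 named genes called in the WT step, 157.0 were called without each WT array in turn.

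Signs turned on 15 arrays as deposited for Aldoc (-0.01), Ctss (-0.29), Evl (-0.29), Fcgr2b (-0.12), Fdft1 (-0.29), H2-DMa (-0.66), Myo1g (-0.41), Pld4 (-0.29), Tap1 (-0.93) and Tapbp (-0.28). With the replicate block on 15 arrays they turned for Aldoc (-0.51), Bmf (-0.28), Ctss (-0.90), Dock10 (-0.01), Dusp1 (-0.18), Evl (-0.96), Fcgr2b (-0.75), Fdft1 (-0.78), Gbp4 (-0.16), H2-DMa (-1.47), H2-Eb2 (-0.08), Itgam (-0.51), Itgax (-0.36), Junb (-0.31), Kit (-0.06), Mycl (-0.25), Myo1g (-1.04), Naip2 (-0.52), Naip6 (-0.41), Nr4a1 (-0.27), Pfkp (-0.69), Pld4 (-1.09), Plin2 (-0.59), Pltp (-0.09), Srebf2 (-0.56), Tap1 (-1.76) and Tapbp (-0.89).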
